A study of Capra hircus with 20 samples.

Results

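Small RNA libraries of the hypothalamus of Jining grey goats were examined for the microRNAs (miRNAs) of the miR-17, miR-18 and miR-19 seed families. The members were chosen by name: every row of the miRNA table for miR-17, miR-20a, miR-20b, miR-93, miR-106a, miR-106b, miR-18a, miR-18b, miR-19a or miR-19b, on either arm of the hairpin. This gave 18 of the 683 miRNA rows, from 10 hairpins. The series holds 20 libraries of whole hypothalamus, 5 each from goats aged 1, 60, 120 and 180 days, which the submitters describe as biological replicates kept under the same conditions. No allele, treatment or agent is named for any group, and the labels used here give no sex.

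A miRNA is cut from a hairpin precursor that can yield a strand from its 5p arm and another from its 3p arm, and it finds its target messenger RNAs mainly through the seed, a short stretch near its 5′ end. The miR-17 family (miR-17, miR-20a, miR-20b, miR-93, miR-106a and miR-106b) and the related miR-18 family carry their seeds on the 5p arm, and the miR-19 family on the 3p arm. These families are best known for promoting proliferation and for restraining cell cycle inhibitors, and in the developing brain they are known from neural progenitor cells.

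By name, all 10 member hairpins were found in NCBI RefSeq's goat annotation (assembly ARS1.2), where they lie in 3 clusters. MIR17, MIR18A, MIR19A, MIR20A and MIR19B neighbour each other and MIR92A on chromosome 12, the miR-17-92 cluster. MIR106B and MIR93 lie with MIR25 inside MCM7, a gene for a subunit of the replicative helicase, on chromosome 25. MIR106A, MIR18B and MIR20B lie with MIR363 on a sequence not placed on a chromosome. The strand that carries a family's seed is called the guide strand below: there were 10 such rows, of which miR-20b and miR-19a are listed with no arm, and the 8 remaining rows are the opposite arms.

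The 20 libraries held between 4018002 and 8324928 miRNA reads. Values are miRNA reads scaled to the same total in every library (RPM), so 3 reads corresponded to between 0.360 and 0.747 RPM. The 7 rows of a neuron marker list (miR-124, miR-128 and others) all passed the filter on low values and summed to between 7939 and 74215 RPM per library. Replicate 2 of day 1 stood apart from the rest, with a median Spearman correlation of 0.873 with the other 19 libraries against at least 0.918 for every other library, and it had the lowest depth. Its values are therefore given with the results that rest on it.

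Within the miR-17 family, miR-20a-5p was lower relative to miR-93-5p in the day 1 libraries than in the later ones. At day 1 miR-93-5p was the most abundant guide strand in 5 of 5 libraries, at 608 ± 349 RPM (SD, n = 5) against 252 ± 119 RPM for miR-20a-5p. From day 60 on miR-20a-5p exceeded miR-93-5p in 14 of 15 libraries. The ratio of miR-20a-5p to miR-93-5p averaged 0.446 ± 0.166 at day 1 and 1.32 ± 0.234, 1.21 ± 0.203 and 1.37 ± 0.363 at days 60, 120 and 180 (SD, n = 5 each). No member's own level passed the test between any pair of ages. Tests of the ratios, added after the data had been seen, are given below. They called 2, 2 and 3 of the 15 family pairs at days 60, 120 and 180 against day 1. Over all pairs of miRNAs tested, 8.91%, 7.59% and 6.06% were called, and a count of 2 is near these shares. At each age the call of the ratio of miR-20a-5p to miR-93-5p was lost when some single library was left out.

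miR-93-5p, from the MCM7 cluster, had 494, 1149, 745, 292 and 359 RPM in replicates 1 to 5 of day 1, and 449, 303, 110.5, 93.1 and 537 RPM at day 60. It had 309.6, 532, 585, 434 and 354 RPM at day 120, and 153, 510.2, 560.1, 156 and 334 RPM at day 180. The highest value was that of replicate 2 of day 1, the lowest values were those of replicates 3 and 4 of day 60, and the ages overlapped.

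miR-20a-5p, from the chromosome 12 cluster, had 281, 270.3, 413, 86.9 and 206 RPM at day 1, and 595, 492, 122, 101.3 and 793 RPM at day 60. It had 296, 581.5, 722, 560.02 and 528 RPM at day 120, and 178, 592, 718, 192 and 673 RPM at day 180. Again replicates 3 and 4 of day 60 were low, together with replicates 1 and 4 of day 180, so the later libraries reached down into the day 1 range. The means were 421 ± 302, 538 ± 154 and 471 ± 265 RPM at days 60, 120 and 180.

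miR-17-5p, the namesake of the family and a neighbour of miR-20a on chromosome 12, had 136, 226, 304, 39.5 and 85.1 RPM at day 1, and 148, 109, 41.6, 24.2 and 214 RPM at day 60. It had 80.9, 156, 188, 137 and 117 RPM at day 120, and 59.5, 147, 189.9, 50.7 and 142 RPM at day 180. The low libraries were those that were low in miR-20a-5p, and all 4 ages overlapped, with means of 158 ± 107, 107 ± 77.9, 136 ± 40.3 and 118 ± 60.2 RPM. It was below miR-93-5p and miR-20a-5p in 20 of 20 libraries.

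In each library a ratio of 2 strands is not altered by a factor that scales the whole library. At day 1 the ratio of miR-20a-5p to miR-93-5p was 0.569, 0.235, 0.555, 0.297 and 0.575 in replicates 1 to 5, and in the 15 later libraries it lay between 0.957 and 2.01. The ratio of miR-20a-5p to miR-17-5p lay between 1.19 and 2.43 at day 1 and between 2.93 and 4.73 later. The ratio of miR-20a-5p to miR-20b lay between 4.81 and 13.7 at day 1 and between 16.6 and 118 later. In these 3 pairs no day 1 library overlapped any later library, including replicate 2 of day 1. They were 3 of the 15 pairs of miR-17 family guide strands, and each contained miR-20a-5p. Of all 85491 pairs of miRNAs tested, 2.03% separated the day 1 libraries from the later ones in this way. Among single levels none of the 12 members tested separated them, against 1.45% of all 414 miRNAs tested.

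**Figure D1:**
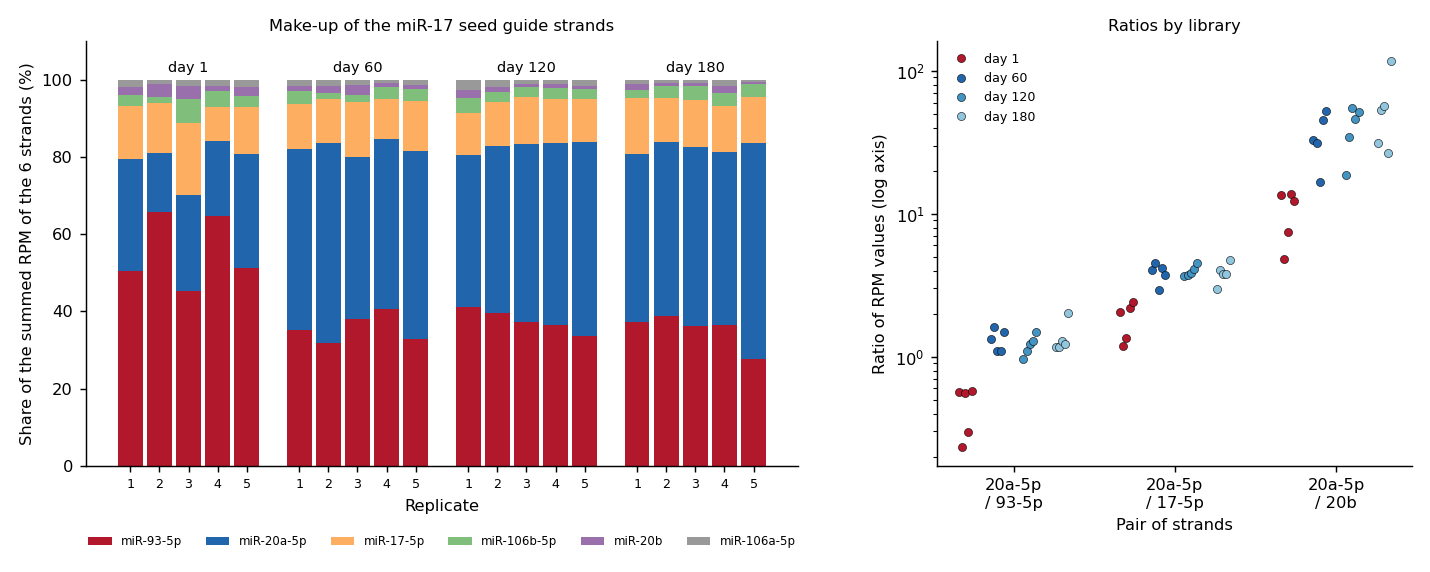
The left panel stacks the share (%) of each of the 6 miR-17 family guide strands in their summed RPM for every library, by age and replicate. The right panel plots, on a log axis, the ratio of the RPM values of miR-20a-5p to miR-93-5p, miR-17-5p and miR-20b, 1 point per library: the day 1 points lie below all later points in each of the 3 pairs.

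Expressed as shares, miR-93-5p made up 55.5 ± 9.20% of the summed RPM of the 6 miR-17 family guide strands at day 1 (range 45.2% to 65.7%) and between 27.8% and 41.2% in the later libraries. The share of miR-20a-5p was 23.6 ± 6.11% at day 1 (range 15.5% to 29.5%) and between 39.4% and 55.9% later. miR-17-5p held a mean of 13.3% at day 1 and 11.98% over the later libraries, with overlapping ranges. The sum itself averaged 1104, 875, 1180 and 980.3 RPM at days 1, 60, 120 and 180 and ranged from 229.7 to 1748 RPM over single libraries, so the libraries of every age overlapped in it. These shares and sums are descriptions with no test.

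The ratios were tested with limma on log2 ratios of RPM + 1 over all 85491 pairs of the 414 miRNAs, with Benjamini-Hochberg adjustment over all pairs and a threshold of 0.05. This comparison was added after the data had been seen. At day 60 against day 1, 2 of the 15 miR-17 family pairs were called, against 8.91% of all pairs. At day 120 it was 2 of 15 against 7.59%, and at day 180 it was 3 of 15 against 6.06%. These shares of the 15 pairs, 13.3% at days 60 and 120 and 20% at day 180, stand beside 7618, 6493 and 5177 pairs called over the whole table. With 15 pairs, a count of 2 is near these backgrounds. Every called pair contained miR-20a-5p, and the 15 pairs share strands, so they are not separate observations.

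The ratio of miR-93-5p to miR-20a-5p fell by 1.64 on the log2 scale from day 1 to day 60 (SE 0.42, adjusted p = 0.0189), a 3.12-fold higher ratio of miR-20a-5p to miR-93-5p. To day 120 it fell by 1.52 (2.86-fold, adjusted p = 0.0310), and to day 180 by 1.68 (3.19-fold, adjusted p = 0.0205). Without replicate 2 of day 1 these were −1.43 (adjusted p = 0.0320), −1.31 (adjusted p = 0.0603) and −1.47 (adjusted p = 0.0368), so the call at day 120 was lost. The day 120 call was also lost without replicate 4 of day 1 or without any of replicates 2, 3, 4 and 5 of day 120, with adjusted p up to 0.0782. The day 60 call was lost without replicate 2 of day 60 (0.0514) and the day 180 call without replicate 5 of day 180 (0.0583). Over all alternatives the adjusted p ranged from 0.0081 to 0.0514 at day 60, from 0.0111 to 0.0782 at day 120 and from 0.00604 to 0.0583 at day 180.

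The ratio of miR-20a-5p to miR-20b rose by 1.68 on the log2 scale at day 60 (SE 0.51, adjusted p = 0.0418), 1.98 at day 120 (adjusted p = 0.0213) and 2.26 at day 180 (adjusted p = 0.0107). Without replicate 2 of day 1 these were 1.44 (adjusted p = 0.0825), 1.74 (adjusted p = 0.0510) and 2.03 (adjusted p = 0.0241). The day 60 call was lost in 11 of the 20 fits that left out a library, namely replicates 2 and 3 of day 1, 1, 2, 4 and 5 of day 60, 2, 3, 4 and 5 of day 120 and 2 of day 180, and also with pseudocounts of 0.1 (adjusted p = 0.0506) and 5 (adjusted p = 0.0576). The day 120 call was lost in 4 of 20, without replicate 2 of day 1 or replicate 3, 4 or 5 of day 120, and the day 180 call in 0 of 20. Over all alternatives the adjusted p ranged from 0.0334 to 0.0873, from 0.0182 to 0.0607 and from 0.00934 to 0.0375 at the 3 ages.

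The ratio of miR-20a-5p to miR-106a-5p rose by 1.64 at day 180 (adjusted p = 0.0310), and by 1.61 without replicate 2 of day 1 (adjusted p = 0.0435). Its call was lost without replicate 1 of day 1 (0.0512) or replicate 2, 3 or 5 of day 180 (up to 0.0849), and its adjusted p was at least 0.0253 over all alternatives. For miR-20a-5p over its cluster neighbour miR-17-5p the log2 changes were 1.10, 1.15 and 1.10 with adjusted p of 0.0859, 0.0767 and 0.0998, so this pair did not pass although its libraries did not overlap. The ratio of miR-93-5p to miR-17-5p had log2 changes of −0.55, −0.37 and −0.58, each with an SE of 0.41, and did not pass. No pair of the family was called among days 60, 120 and 180, where none of the 85491 pairs was.

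The guide strands of the unplaced cluster were low. miR-20b had 20.7, 56.2, 55.8, 6.34 and 16.8 RPM at day 1, and 18.1, 15.7, 7.35, 2.24 and 15.1 RPM at day 60. It had 15.8, 16.9, 13.2, 12.2 and 10.2 RPM at day 120, and 5.74, 11.2, 12.7, 7.16 and 5.72 RPM at day 180. Replicates 2 and 3 of day 1 were above every other library, and replicate 4 of day 1 lay among the lowest, so day 1 overlapped each later age. The means were 31.2 ± 23.3, 11.7 ± 6.64, 13.7 ± 2.72 and 8.51 ± 3.25 RPM.

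miR-106a-5p, the other guide strand of that cluster above 10 RPM, had 17.7, 19.9, 25.5, 6.58 and 11.95 RPM at day 1, and 19.8, 15.3, 4.13, 1.76 and 21.9 RPM at day 60. It had 19.4, 24.6, 16.3, 13.3 and 15.3 RPM at day 120, and 4.73, 10.02, 12.7, 6.80 and 7.83 RPM at day 180. The day 180 libraries, at most 12.7 RPM, all lay below the day 120 libraries, at least 13.3 RPM. How many of all miRNAs separate these 2 ages was not counted. The difference for miR-106a-5p was −1.03 on the log2 scale (SE 0.53), beside a median of −0.15 over all miRNAs tested. It did not pass limma's test (adjusted p = 0.997). At day 60 its values overlapped those of every other age. The means were 16.3 ± 7.30, 12.6 ± 9.16, 17.8 ± 4.42 and 8.42 ± 3.07 RPM.

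miR-106b-5p, the guide strand beside miR-93 in MCM7, had 26.3, 26.6, 104, 19.1 and 19.8 RPM at day 1, and 41.0, 15.2, 4.82, 7.20 and 50.4 RPM at day 60. It had 29.0, 34.7, 41.0, 32.3 and 26.4 RPM at day 120, and 8.60, 41.7, 55.0, 15.1 and 41.0 RPM at day 180. Replicate 3 of day 1 was far above the other 4 day 1 libraries, and the remaining values overlapped across ages. The means were 39.3 ± 36.6, 23.7 ± 20.7, 32.7 ± 5.61 and 32.3 ± 19.6 RPM. In 20 of 20 libraries it was below miR-93-5p, its cluster neighbour.

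The miR-19 family was represented mainly by miR-19b-3p, which is processed from the chromosome 12 cluster and in other mammals also from a copy beside miR-106a. It had 2.11, 12.4, 117, 1.10 and 3.14 RPM at day 1, and 38.4, 11.99, 3.45, 2.72 and 36.1 RPM at day 60. It had 14.2, 21.9, 23.2, 17.1 and 21.1 RPM at day 120, and 5.74, 18.8, 14.9, 8.26 and 40.1 RPM at day 180. Replicate 3 of day 1 was the highest of all 20 libraries while replicates 1, 4 and 5 of that age were among the lowest. The means were 27.1 ± 50.3, 18.5 ± 17.5, 19.5 ± 3.73 and 17.6 ± 13.6 RPM. Its SD around the age means, 1.52 on the log2 scale, was the largest of the 12 members tested, and the median over all 414 miRNAs was 0.82. miR-19a, its family partner, lay between 0 and 2.34 RPM.

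The miR-18 family was near the limit of detection. miR-18a-5p lay between 0 and 10.2 RPM, with no read in 2 libraries, and its day 1 values of 0.660, 2.49, 10.2, 0 and 1.93 RPM spanned the whole range. miR-18b-5p had no read in 11 of 20 libraries and at most 0.841 RPM. By the medians over libraries, the summed guide strands of the miR-17 family were 73.4 times those of the miR-19 family and 506 times those of the miR-18 family. Among the strands under miR-17-5p, miR-106b-5p was above miR-19b-3p in 19 of 20 libraries, miR-19b-3p above miR-20b in 12 and miR-20b above miR-106a-5p in 10, so the last 3 had no fixed order. Ligation and amplification differ between sequences, so an order of strands is an order of reads.

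**Figure D2:**
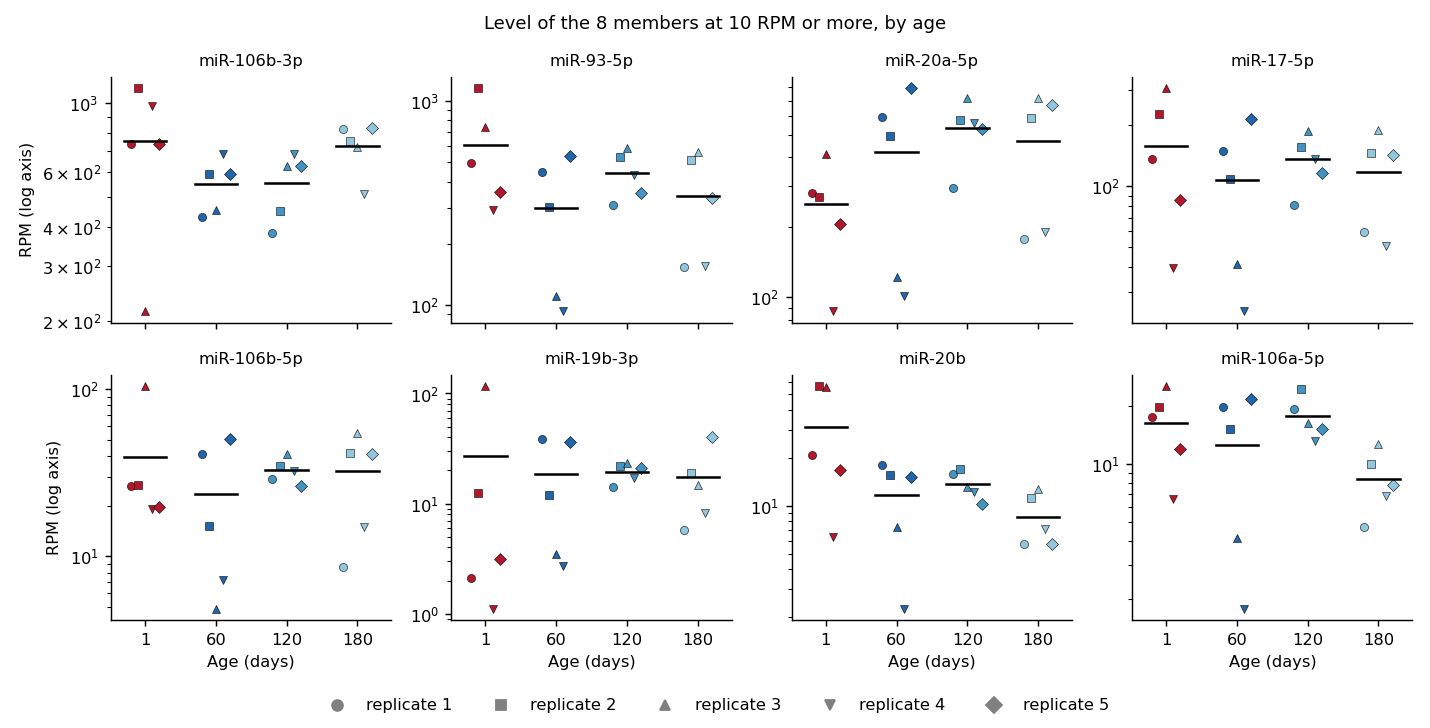
Each panel shows the RPM (log axis) of 1 of the 8 members that reached a mean of 10 RPM at any age, against age in days. Points are libraries, their shape gives the replicate number, and the bar is the mean of the age (n = 5). In every panel the libraries of day 1 overlap those of later ages.

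Between ages, limma on log2(RPM + 1) was run over the 414 miRNAs with at least 1 RPM in at least 5 libraries, and 12 of the 18 members passed this filter. The 6 that did not were miR-17-3p, miR-19b-5p, miR-20a-3p, miR-106a-3p, miR-18b-3p and miR-18b-5p. At day 60 against day 1, 0 of the 12 members were called, against 3.86% of all miRNAs tested. At day 120 and at day 180 against day 1 the counts were also 0 of 12, against 3.38% in each. With 12 members, a count of 0 is near these backgrounds. An F test over the 4 ages called 0 of the 12 as well, against 1.93%, with adjusted p from 0.336 (miR-20b) to 0.971 (miR-18a-5p). In RPM from whole tissue, fewer cells of a type and less RNA per cell cannot be told apart.

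Before adjustment, 2 members at day 60, 1 at day 120 and 1 at day 180 had p under 0.05, that is 16.7%, 8.33% and 8.33% of the members against 21%, 22.5% and 20.8% of all miRNAs. miR-93-5p differed by −1.17 on the log2 scale at day 60 (SE 0.53, adjusted p = 0.197), and miR-20b by −1.21 (SE 0.55, adjusted p = 0.204). miR-20a-5p differed by 1.20 at day 120 (SE 0.58, adjusted p = 0.218). miR-20b differed by −1.44 at day 180 (SE 0.55, adjusted p = 0.138). Fold changes on this scale understate the change of members near 1 RPM.

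miR-20b was the only member called by any other test or with any library left out. DESeq2 on whole reads recovered from the RPM values called it at day 60 (log2 fold change −1.30, adjusted p = 0.0328) and at day 180 (−1.56, adjusted p = 0.0129). edgeR scaled by library size alone called it at day 180 (−1.87, adjusted p = 0.0420), and edgeR with TMM scaling did not (adjusted p = 0.0639 at day 60 and 0.0561 at day 180). Without replicate 4 of day 1, limma called it at day 60 (−1.65, adjusted p = 0.0490) and at day 180 (−1.88, adjusted p = 0.0378). Without replicate 2 of day 1 the limma differences were −0.91 and −1.14 with adjusted p of 0.335 and 0.314. Over all alternatives its adjusted p ranged from 0.0328 to 0.503 at day 60 and from 0.0129 to 0.314 at day 180.

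As a set, the 12 members had a median log2 difference from day 1 of −0.50 at day 60, 0.05 at day 120 and −0.25 at day 180, beside −0.04, −0.12 and −0.25 over all miRNAs tested. These medians depended on the tool: at day 120 limma had 7 of 12 members above 0, while edgeR with TMM had 3 of 12 and a median of −0.25, beside −0.22 over all miRNAs, and DESeq2 had 3 of 12 and −0.33, beside −0.25. miR-19b-3p at day 120 went from 1.26 in limma to −0.31 in edgeR with TMM and −0.46 in DESeq2, none of which passed. At day 120 against day 60, all 9 guide strands tested had differences above 0 (median 0.68), and at day 180 against day 120, 0 of 9 did (median −0.38). Both counts were the same under median-of-ratios and quantile scaling, while the second was 1 of 9 in edgeR with TMM and 2 of 9 in DESeq2. In limma, 217 of all 414 miRNAs had differences above 0 at day 120 against day 60 (median 0.03). At day 180 against day 120 it was 140 of 414 (median −0.15). The 9 guide strands varied together: in replicates 3 and 4 of day 60 all 9 were under their own means. They are therefore not 9 separate observations. In both comparisons 0 of the 12 members and 0% of the 414 miRNAs were called. The share of variance lying between ages had a median of 14.8% over the members and 18.03% over all miRNAs, with the highest values for miR-20b (33.5%) and miR-93-5p (26.2%) and the lowest for miR-18a-5p (2.54%).

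**Figure D3:**
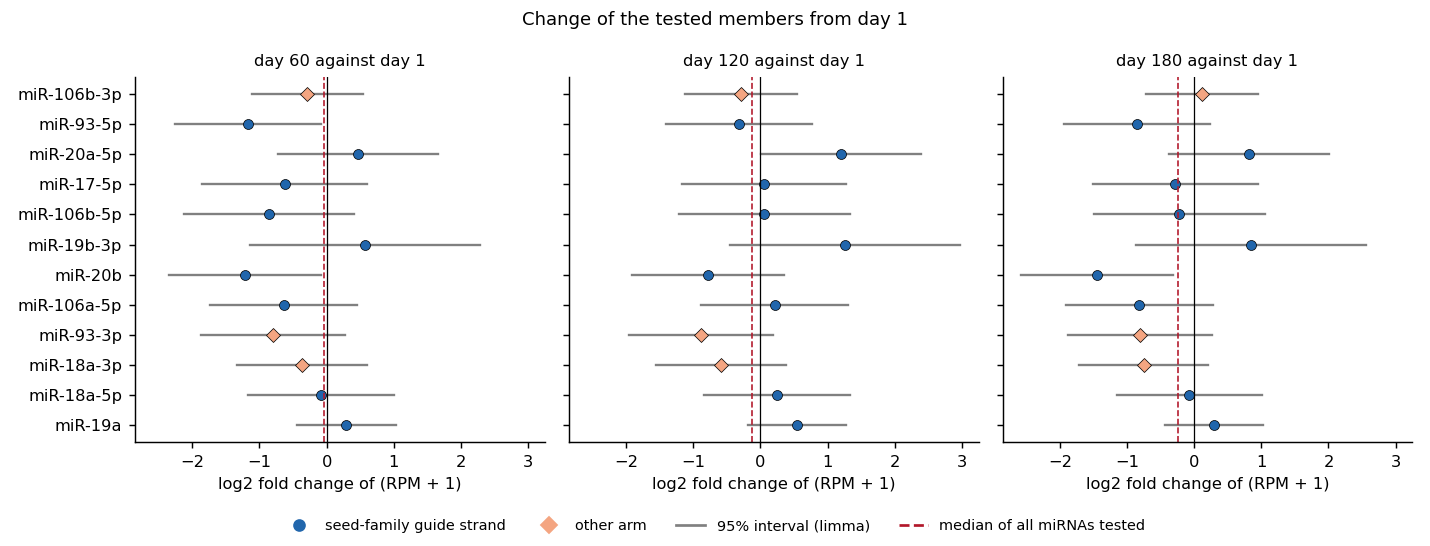
Points give the log2 fold change of RPM + 1 from day 1 to days 60, 120 and 180 for the 12 members tested, with limma's 95% intervals, and the dashed line is the median of all 414 miRNAs tested. miR-20a-5p lies above 0 and miR-93-5p and miR-20b below 0 at each age, and none passed after adjustment.

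The guide strands varied together from animal to animal. In replicate 4 of day 1, replicates 3 and 4 of day 60 and replicates 1 and 4 of day 180, all 9 guide strands tested lay below their own means over the 20 libraries. In replicate 3 of day 1, replicates 1 and 5 of day 60, replicates 2 and 3 of day 120 and replicate 3 of day 180, all 9 lay above. The median deviation of the 9 was 1.48 on the log2 scale in replicate 3 of day 1 and −1.85 and −1.50 in replicates 4 and 3 of day 60. High and low libraries therefore occurred at the same age.

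**Figure D4:**
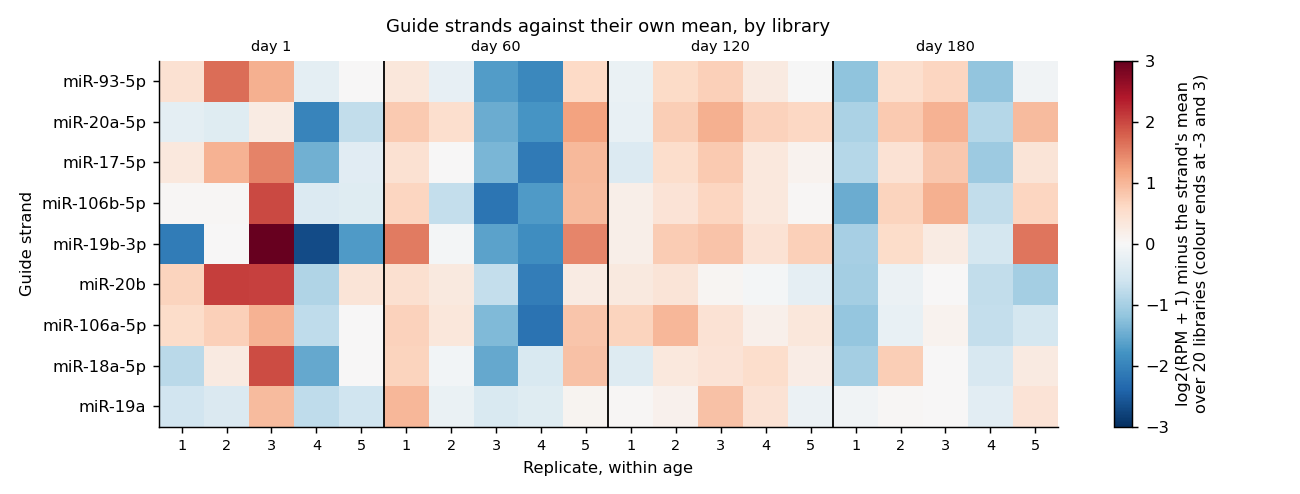
Colours give log2(RPM + 1) of each of the 9 guide strands tested minus its mean over the 20 libraries, with libraries in columns by age and replicate. Whole columns are blue in replicate 4 of day 1, replicates 3 and 4 of day 60 and replicates 1 and 4 of day 180, and red in replicate 3 of day 1.

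Sums of marker miRNAs also differed in these libraries. For the 5 low libraries in the order above, the 6 rows of the pituitary list (miR-7, miR-375, miR-141 and miR-200) summed to 117773, 39340, 229575, 21812 and 304802 RPM, and the 6 rows of the vessel list (miR-126, miR-143 and miR-145) to 30233, 138127, 49742, 181340 and 33164 RPM. The 7 rows of the neuron list summed to 52172, 32266, 49100, 22016 and 30116 RPM. Of all 10 marker lists, the pituitary and neuron sums were the highest of their age in replicate 4 of day 1, the pituitary, neuron and liver sums in replicate 4 of day 60, and the pituitary and the multiciliated and choroid plexus sums in replicate 4 of day 180. In replicate 3 of day 60 the vessel, immune, muscle, neural progenitor, and multiciliated and choroid plexus sums were the highest, and in replicate 1 of day 180 the vessel, immune, erythroid, muscle and liver sums. Other sums were the lowest of their age. In replicate 4 of days 1, 60 and 180 these were the oligodendrocyte (417, 1419 and 696 RPM) and erythroid sums (90.5, 149 and 182 RPM). In replicate 4 of days 1 and 180 the immune, vessel and muscle sums were lowest too, and in replicate 3 of day 60 the pituitary sum was. Over all libraries of days 1, 60, 120 and 180 the pituitary sum ranged from 11558 to 117773, from 39340 to 229575, from 21272 to 74713 and from 9645 to 304802 RPM. The vessel sum ranged from 30233 to 219343, from 31697 to 138127, from 36231 to 126571 and from 33164 to 181340 RPM. Replicate 5 of day 1, with the highest vessel sum of all, and replicate 1 of day 120, highest of its age in the pituitary, vessel and neuron sums, had 5 and 4 of the 9 guide strands below their means. miR-7 is also made by hypothalamic neurons. The part of these markers in the members' values was not tested, and 0 rows of the pituitary, vessel and neuron lists were called between ages.

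Correlations of log2(RPM + 1) over the 20 libraries were computed for 11 pairs of members, with 100000 permutations and Benjamini-Hochberg adjustment over the 11. The smallest p that so many permutations can give is about 1e-05. Adjusted p of 2.7e-05 for r and 3.7e-05 for rho stand at that limit. Between neighbours on chromosome 12, miR-17-5p and miR-20a-5p had r = 0.84 and rho = 0.75 (adjusted permutation p = 5.5e-05 and 0.00033). With the ages' means removed, r was 0.96. Without the 2 libraries farthest from the median of miR-17-5p, replicate 4 of day 1 and replicate 4 of day 60, r was 0.74.

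miR-17-5p and miR-93-5p, from different clusters, had r = 0.91 and rho = 0.95 (adjusted permutation p = 2.7e-05 and 3.7e-05), and r = 0.94 both within ages and without the 2 farthest libraries. miR-20a-5p and miR-93-5p had r = 0.65 and rho = 0.65 over all libraries (adjusted permutation p = 0.0019 and 0.0032), 0.60 without the 2 farthest libraries, and 0.92 within ages. The strands of this pair thus moved together among animals of 1 age, at a ratio that differed between day 1 and later.

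In the other 2 clusters, miR-106a-5p and miR-20b had r = 0.85 and rho = 0.87 (adjusted permutation p = 2.7e-05 and 3.7e-05), and 0.79 without the 2 farthest libraries. miR-106b-5p and miR-93-5p had r = 0.84 and rho = 0.81 (adjusted permutation p = 2.7e-05 and 0.00011), and 0.79 without the 2 farthest. On chromosome 12, miR-18a-5p and miR-19b-3p had r = 0.88 and rho = 0.85 (adjusted permutation p = 2.7e-05 and 3.7e-05), and 0.78 without replicates 3 and 4 of day 1. The 15 pairs of miR-17 family guide strands had a median r of 0.83, and all 85491 pairs of miRNAs tested had a median of 0.12 with quartiles of −0.14 and 0.39. The strands share libraries and their scaling, and near-identical sequences such as miR-17-5p, miR-20a-5p, miR-106a-5p and miR-20b can share reads, so the split of reads between them is uncertain.

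The 2 arms of a hairpin were far from equal in most members. From miR-20a 99.9% of the RPM were on the 5p arm, from miR-17 99.3%, from miR-93 98.9% and from miR-106a 98.3%. From miR-19b 98.4% were on the 3p arm. In each of these hairpins the seed-bearing arm was the higher in 20 of 20 libraries. miR-18a was split, with 48.3% on the 5p arm, the 5p arm higher in 9 libraries and the 3p arm in 10. Over single libraries miR-18a-3p lay between 0.122 and 13.7 RPM and miR-93-3p between 1.10 and 32.4 RPM. The arms opposite the guide strands reached at most 5.23 RPM for miR-17-3p, 1.28 RPM for miR-19b-5p, 1.24 RPM for miR-18b-3p, 1.12 RPM for miR-20a-3p and 0.856 RPM for miR-106a-3p, and each of these 5 had at least 1 library without a read.

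miR-106b differed from its family in this respect: its 3p arm, which does not carry the miR-17 seed, held 95.3% and was above the 5p arm in 20 of 20 libraries. miR-106b-3p was the most abundant of all 18 members by its mean and ranked 92 of 683 rows, before miR-93-5p at 109 and miR-20a-5p at 110, and it was above miR-93-5p in 16 and above miR-20a-5p in 15 of the 20 libraries. It had 739.6, 1112, 214, 972 and 735 RPM at day 1, and 432, 593, 453, 683 and 589 RPM at day 60. It had 382, 450.1, 625, 685 and 627 RPM at day 120, and 822, 751, 722, 509 and 831 RPM at day 180. Replicate 3 of day 1, the library in which miR-106b-5p was highest, was the lowest of all 20 for miR-106b-3p.

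The ages overlapped for miR-106b-3p, with means of 754 ± 342, 550.0 ± 105.6, 554 ± 130 and 727 ± 130 RPM. Its SD around the age means was 0.54 on the log2 scale, the smallest after miR-19a among the 12 members tested. The 2 arms of miR-106b had r = −0.28 and rho = −0.17 over the 20 libraries (adjusted permutation p = 0.24 and 0.47). The arms of miR-93 had r = 0.69 and rho = 0.65 (adjusted permutation p = 0.0008 and 0.003), and those of miR-18a r = 0.25 and rho = 0.25 (adjusted permutation p = 0.28 and 0.32). Without the 2 farthest libraries r was −0.16 for miR-106b, 0.68 for miR-93 and 0.11 for miR-18a.

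**Figure D5:**
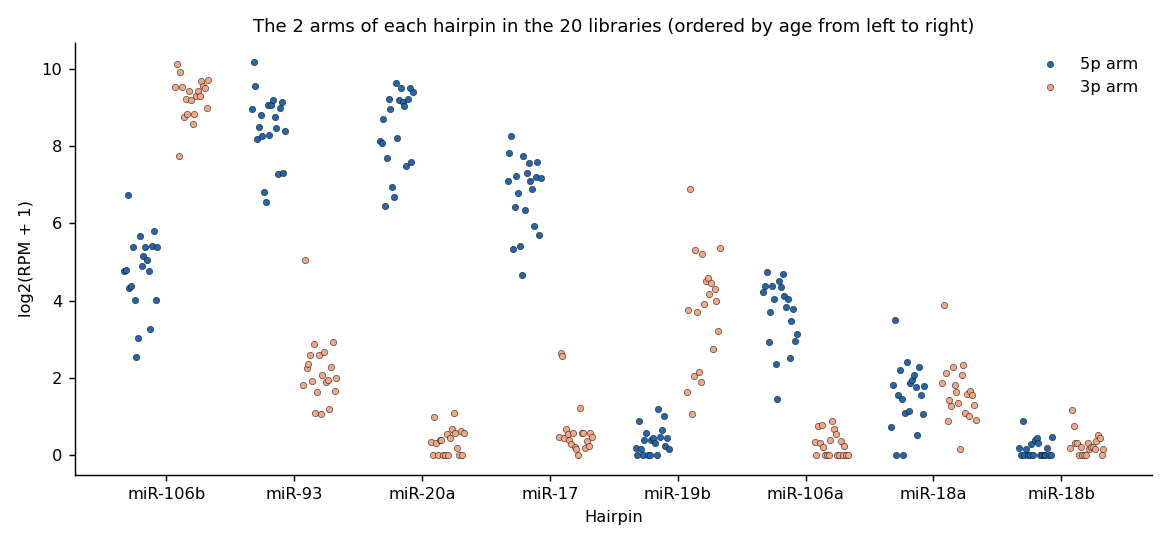
For the 8 member hairpins with both arms in the table, log2(RPM + 1) of the 5p and the 3p arm is plotted for each of the 20 libraries, ordered by age from left to right. The 3p arm lies above the 5p arm in all libraries for miR-106b and miR-19b, and below it for miR-93, miR-20a, miR-17 and miR-106a.

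The log2 ratio of the arms was tested with limma over the 120 hairpins with both arms past the filter, among them miR-106b, miR-93 and miR-18a. Of these 3, none was called at day 60, day 120 or day 180 against day 1, where 24.2%, 10.8% and 6.67% of all hairpins were. The ratio of miR-106b-5p to miR-106b-3p differed from day 1 by −0.58, 0.35 and −0.34 on the log2 scale (SE 0.73 each). Over the libraries this ratio had an SD of 1.26, rank 6 of 120 from the most variable, and the median hairpin had 0.84.

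Of the hairpins that share the 3 clusters but carry another seed, miR-363 differed between ages. miR-363-3p, the neighbour of miR-20b and miR-106a, had 98.6, 139, 169, 45.7 and 85.1 RPM at day 1, and 36.6, 36.9, 22.1, 16.5 and 36.4 RPM at day 60. Every later library was below every day 1 library, and the means were 107.6 ± 48.0, 29.7 ± 9.73, 27.5 ± 2.12 and 16.4 ± 3.42 RPM. It fell by 1.76 (SE 0.42, adjusted p = 0.0188), 1.80 (adjusted p = 0.0150) and 2.53 (adjusted p = 0.000465) on the log2 scale. miR-92a-3p, of the chromosome 12 cluster, and miR-25-3p, of the MCM7 cluster, were far more abundant, at means of 3637 to 5126 and 2593 to 3862 RPM, and were not called. Of the 6 rows of the 3 neighbours, miR-363-3p was the only one called against day 1. Among all 414 miRNAs tested, the levels of 1.45% kept the day 1 libraries apart from every later one. Calls against day 1 made up 3.86%, 3.38% and 3.38% of these miRNAs at days 60, 120 and 180. The count called among the 6 rows is too small to be set against these shares.

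Some rows of the cell type marker lists were called between day 1 and later. Over all 414 miRNAs tested, 3.86%, 3.38% and 3.38% were called at days 60, 120 and 180 against day 1. With 1 to 7 rows tested per list, the counts called are too small to be set against these shares. The 6 rows of a neural progenitor list (miR-92b, miR-130b, miR-301a and miR-363) summed to between 179 and 413 RPM at day 1, 104 and 281 at day 60, 60.2 and 125 at day 120, and 40.9 and 106.3 at day 180. This list includes miR-363-3p, the cluster neighbour described above, which had 45.7 to 169 RPM at day 1. Its calls at each age are that same result, and its values are part of the sum, which was not tested. At days 60, 120 and 180, 2, 1 and 1 of the list's 6 rows had log2 differences from day 1 above 0. Of the list's rows other than miR-363-3p, only miR-130b-3p was called lower, at day 180. miR-449a-5p of the multiciliated and choroid plexus list was called lower at each age, 1 of the 7 rows tested. The sum of that list's 11 rows had medians of 2950, 7997, 4247 and 3611 RPM at days 1, 60, 120 and 180. Most of its rows went the other way. At each later age 1 of the 7 rows tested had a log2 difference from day 1 above 0. The median differences of these 7 were −1.05, −0.94 and −0.83. miR-122 of liver was called higher at day 60, where replicate 4 had 2540 RPM and the other libraries 124 to 233 RPM. At days 120 and 180 its log2 differences from day 1 of 2.54 and 2.06 were not called. Its medians were 17.9, 139, 115 and 131 RPM at the 4 ages. None of the tested rows of the erythroid, immune and microglia, vessel, neuron, oligodendrocyte, pituitary and muscle lists was called. The part of these markers in the ratios of miR-20a-5p to miR-93-5p was not tested.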

How the data were processed

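Per the labels, total RNA was extracted with Trizol and small RNA libraries were made with a NEBNext kit; the submitters' processing notes name Bowtie. No label or file header used here names a genome build, a miRNA catalogue or a counting tool. The deposited table holds, per miRNA and library, values headed tpm. In every library they sum to 1000000 within 16.2 and are multiples of 1 read, so they are treated as RPM computed by the authors, not divided by length. Its column of sums over libraries, a value of another kind made by the authors, was not used. Whole reads were recovered for 100% of 7785 values checked (those below 1000 reads, tolerance 0.1 read).

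Samples were grouped by age from their labels, and columns were matched to samples by description. The main test was limma 3.58.1 (R 4.3.3, eBayes with trend) on log2(RPM + 1), 1 fit with 4 age means, 16 residual degrees of freedom and Benjamini-Hochberg adjustment. Pair ratios used limma without trend. edgeR 4.0.16 and DESeq2 1.42.0 ran on the recovered counts as alternatives to the authors' RPM. The fits were tested on simulated data. Precision follows depth: at 3 reads or fewer a level is not told from 0, and this covers counting error only. No pair of libraries held the same values.

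The members, lists and tests were chosen with earlier results of these data known. All member rows are named, those with a mean of at least 10 RPM at any age with every library's value, along with the neighbours miR-25, miR-92a and miR-363. Names in the text omit the goat prefix.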

Additional observations from a re-analysis of the deposited data

Results flagged for a closer look

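Within each age, a Dixon test at its 95% critical value of 0.71 for 5 libraries asked whether the highest or lowest library stood apart from the others. It marked 11 of 72 groups (18 members at 4 ages), or 15.3%, and 9 of the 11 were at day 1. The usual rate of 1 in 20 holds for normally distributed values. The test ran on RPM without a log, some groups held only a few reads, and all 11 marks were high libraries. The share of 15.3% can therefore not be set against that rate. Replicate 3 of day 1 was the high library for miR-106b-5p (104 RPM), miR-19b-3p (117 RPM), miR-18a-5p (10.2 RPM), miR-19a (2.24 RPM), miR-20a-3p (0.982 RPM), miR-19b-5p (0.841 RPM) and miR-18b-5p (0.841 RPM). Replicate 2 of day 1, the shallowest library, was the high library for miR-93-3p (32.4 RPM) and miR-18a-3p (13.7 RPM). At day 60, replicate 1 was high for miR-19a (2.34 RPM) and replicate 2 for miR-18b-3p (0.160 RPM, a level below that of 3 reads). That miR-18b-3p value was 1 read, and the other day 60 libraries had none, so its mark follows from that read alone. Strands of 1 library share its preparation and scaling, so these marks are not independent of each other.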

How the results depend on the processing

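For the 12 members the settings tried were pseudocounts of 0.1 and 5, no filter and a filter at 10 RPM, median-of-ratios and quantile scaling, no variance trend, only the ages compared, a replicate block, edgeR, DESeq2 and each of the 20 libraries left out. The count of members called stayed at 0 except for miR-20b: DESeq2 gave 1 at day 60, 1 at day 180 and 1 over the 4 ages, edgeR with library size gave 1 at day 180, and leaving out libraries gave 0 to 1 at days 60 and 180. Over all miRNAs the calls were less stable, at 16, 14 and 14 for days 60, 120 and 180 against day 1, 2 to 43, 7 to 29 and 5 to 31 with a library left out, and 4 to 86, 4 to 74 and 5 to 61 under other settings. The F test's 8 became 5 to 16 and 6 to 90. The median of all miRNAs at day 180 against day 1 was −0.25, −0.03 with median-of-ratios and −0.0028 with quantile scaling, and miR-93-5p, miR-20a-5p and miR-20b kept their direction, while miR-17-5p went from −0.28 to 0.10 with quantile scaling, and miR-19b-3p was below 0 against day 1 in edgeR and DESeq2. For pairs of miR-17 family guide strands, a pseudocount of 0.1 gave 1 pair at day 60, and leaving out libraries gave 0 to 2 pairs at day 60, 0 to 2 at day 120 and 1 to 3 at day 180; the ratio of miR-93-5p to miR-20a-5p stayed below that of day 1 throughout. With the replicate block, 0 members and 2, 2 and 3 pairs were called, and 0 member hairpins by arm ratio. Libraries with the same number do not pair: their deviations had a median r of 0.07 over 30 pairs (−0.71 to 0.54) and −0.05 over the other 120, and 4 of 20 correlated best with their own number. Depth limits the miR-18 family and miR-19a, whose levels lie within a few times that of 3 reads.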

Other observations

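Among miRNAs of other families with known names, those whose log2(RPM + 1) followed the leading member of each family most closely over the 20 libraries were the following, as a description with no test and 339 candidates. For miR-106b-3p, the most abundant row of the miR-17 family hairpins, they were miR-30f-3p (r = 0.73), miR-99b-5p (0.71), miR-361-3p (0.69), miR-500-3p (0.63) and miR-296-3p (0.62). For miR-19b-3p they were miR-140-5p (0.85), miR-194 (0.83), miR-9-3p (0.83), miR-30e-5p (0.83) and miR-21-5p (0.81). For miR-18a-3p they were miR-197-3p (0.86), miR-204-3p (0.84), miR-330-3p (0.83), miR-346-5p (0.83) and miR-200c (0.83).

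For the 2 guide strands whose ratio differed between day 1 and later, chosen after their values were seen, their 5 closest miRNAs did not share a name. miR-93-5p was closest to miR-15b-5p, miR-362-5p and miR-331-3p (r = 0.91 each), miR-151-5p (0.90) and miR-1388-3p (0.89). miR-20a-5p was closest to miR-140-5p (0.95), miR-186-5p (0.89), miR-9-3p (0.87), miR-374a-5p (0.87) and miR-30b-5p (0.85). miR-140-5p and miR-9-3p were thus among the 5 closest to both miR-20a-5p and miR-19b-3p, members of 1 cluster with different seeds.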
